A study of Mus musculus with 24 samples.

Results

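The 6 mice tested earliest were set against the other 18 mice of a hypothalamus SAGE-Seq series. In SAGE-Seq a short tag is read beside the last cut site of the enzyme NlaIII in a polyadenylated transcript, and a gene's level is the number of its tags. All mice were male F2 animals of the B6.CAST-17.1 subcongenic cross, aged 10 to 16 weeks at the start of testing, with *cast/cast* or *b6/b6* genotype across a segment of chromosome 17 and *b6/b6* alleles over the rest of the genome. They had been selected from several cohorts for extreme intake from a carbohydrate/protein (C/P) diet offered beside a fat/protein diet, and for total intake, so that neither genotype is a random draw, and the hypothalamus was taken after 48 h back on both diets and a short fast. The early mice were defined by a study number of 72 or less in the sample labels (15 to 72, against 93 to 364 in the later mice), and comprised 4 *b6/b6* and 2 *cast/cast* mice. The later mice comprised 8 *b6/b6* and 10 *cast/cast* mice, and every mouse gave 1 library. That the study number follows calendar time is an inference. The labels name no date of harvest, library or sequencing run, so season, cohort, operator and library batch cannot be told apart from the early group. The source of the shortening in the fat/protein diet varied with availability, and it was not among the sample details used here. The colony numbers of the early mice, 24278 to 24596, were also the lowest (25014 to 26641 in the later mice).

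The hypothalamus sits at the base of the brain and was lifted out by visual landmarks, so each sample can carry differing amounts of neighbouring thalamus, striatum, pituitary stalk, choroid plexus, meninges and blood. Its own nuclei are marked by neuropeptides such as melanin-concentrating hormone (*Pmch*), proopiomelanocortin (*Pomc*), CART (*Cartpt*) and enkephalin (*Penk*), which act in feeding, arousal and stress. All 24 libraries carried these peptides. The 29 tested neuropeptide genes summed to 10147 to 43458 normalized counts (tag hits divided by the size factor of the library), while growth hormone (*Gh*), a defining pituitary hormone, was at 0 in some mice and reached 466.6 in 1 early mouse. In bulk tissue, fewer cells of a type and less RNA per cell cannot be told apart.

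The tags of 8 genes that the results turn on are shown because each level below is a count of one such short 3′ sequence. They were read from GRCm38 at the last NlaIII site (in capitals) of the longest GENCODE M21 transcript, 5′ to 3′ along the gene. All 8 sites lie in the 3′ UTR. The deposited values do not name the tags that were counted, so other tags of the same gene could contribute.
*Zbtb16*, chr9:48654837-48654863, minus strand: CATGtgttgagaggatatgggctgggg
*Tmem107*, chr11:69072611-69072637, plus strand: CATGtgaaattggtagagttttgaaga
*Fbxo36*, chr1:84900307-84900333, plus strand: CATGcaaatccacctagtgccttgctc
*Hdc*, chr2:126593749-126593775, minus strand: CATGctccagaggttgcaggcgcttgt
*Arl2*, chr19:6134465-6134491, minus strand: CATGccaaaaggaaaggctgggctggg
*Klf9*, chr19:23167694-23167720, plus strand: CATGgaaaatctactagttttagggtt
*Cartpt*, chr13:99898501-99898527, minus strand: CATGtacaaattacacataataaagca
*Cntn6*, chr6:104863235-104863261, plus strand: CATGgatctttgggaattttctgagag

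The early mice did not form a single group. On the first principal component of log2(normalized count + 1), which held 32.7% of the variance, early *b6/b6* 1 and 4 lay at one end (82.6 and 92.2) and early *cast/cast* 1 and 2 at the other (-80.9 and -90.8). Early *b6/b6* 2 and 3 lay at 24.1 and 30.5, among later mice. Of the later mice, *cast/cast* 4 and 6 and *b6/b6* 1 lay nearest to the early *cast/cast* mice (-62.1, -64.8 and -60.4). Libraries held 7.75 to 13.1 M tag hits (M, mega), the early ones 7.75 to 9.98 M. The early mean was lower than in later mice of the same genotype, with overlapping ranges. The difference was -1.43 M (two-sided exact permutation of the early labels within genotype, *P* = 0.0176). It was -1.63 M among *b6/b6* mice alone (exact *P* = 0.0747) and -1.11 M among *cast/cast* mice alone (exact *P* = 0.182). Summed normalized counts were lowest in early *b6/b6* 1 and 4 (8.29 and 8.43 M) and highest in the early *cast/cast* mice (11.7 M in each), against 9.19 to 11.3 M in the other libraries. Early *b6/b6* 1 and 4 were the 2 highest of all 24 mice for 18.6% of genes and the 2 lowest for 11.8%.

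**Figure D1:**
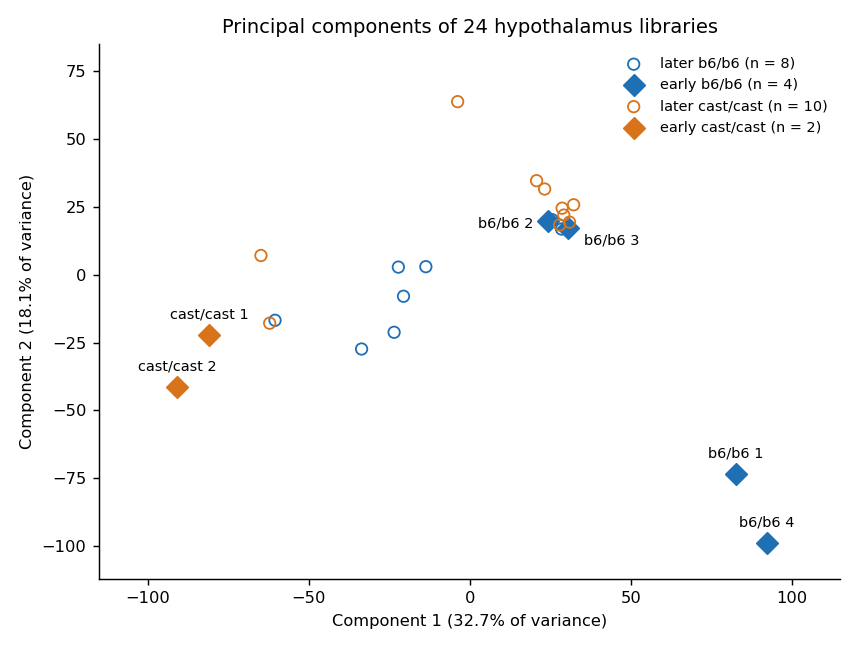
First 2 principal components of log2(normalized count + 1) of 13998 genes, 1 point per mouse, with filled diamonds for early and open circles for later mice, blue for *b6/b6* and orange for *cast/cast*. Early *b6/b6* 1 and 4 and both early *cast/cast* mice lie at opposite ends of component 1, and early *b6/b6* 2 and 3 lie among later mice.

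Taking the 6 early mice as one group, with genotype as a covariate, 0 of 13998 genes (0%) differed from the later mice at an adjusted *P* of at most 0.05 (limma on log2(normalized count + 1), Benjamini-Hochberg adjustment, lowest adjusted *P* = 0.298). At an unadjusted *P* under 0.05 there were 1805 genes (12.9%). The thresholds that the study used, *P* up to 0.01 without adjustment and a 1.5-fold change, here applied to the fitted coefficient, were passed by 378 genes (2.7%), 213 higher (1.52%) and 165 lower (1.18%) in early mice. On the recovered tag hits, edgeR called 68 genes at the adjusted threshold (67 higher, 1 lower) and DESeq2 545 (509 higher, 36 lower). No gene separated the 6 early from the 18 later mice without overlap. Without early *b6/b6* 1 and 4, the study's thresholds were passed by 102 genes (22 higher, 80 lower), and without early *b6/b6* 1 or early *b6/b6* 4 alone by 134 and 101. Without early *b6/b6* 2 or 3 they were passed by 869 and 949. Leaving out both early *cast/cast* mice gave 1740 genes at the adjusted threshold, all of which then rest on the 4 early *b6/b6* mice.

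The 15 genes higher in early mice with the lowest *P* had fitted log2 differences of 0.59 to 1.82 and unadjusted limma *P* of 0.000125 to 0.00112, and none passed adjustment. *Zbtb16*, which encodes a BTB zinc finger transcription factor known to respond to glucocorticoids, came first. It had 110.3, 146.3, 62.7 and 130.5 normalized counts in early *b6/b6* 1 to 4 and 95.2 and 80.7 in early *cast/cast* 1 and 2, and in the later mice a lowest value of 11.4, a median of 38.6 and a highest of 70.8. Only early *b6/b6* 3 fell inside the range of the later mice. The fitted log2 difference was 1.56 (SE 0.35), and *Zbtb16* was the one gene of these 15 for which early *b6/b6* 2 was the highest of the early mice.

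Next in order stood *Ap1s2*, a subunit of the AP-1 clathrin adaptor, and *Cntnap5b*, a cell adhesion protein of the neurexin family. *Cntnap5b* had 76.6, 12.5, 11.6 and 80.5 normalized counts in the early *b6/b6* and 30.5 and 23.7 in the early *cast/cast* mice, and a median of 7.82 with a highest value of 17.2 in later mice. Early *b6/b6* 2 and 3 were thus within the later range and the other 4 above it. *Nr2f1*, an orphan nuclear receptor of brain patterning, had 670.0, 805.1, 756.4 and 1316 normalized counts in early *b6/b6* and 812.8 and 1237 in early *cast/cast* mice (later median 593.4, highest 812.8), a fitted log2 difference of 0.59 (SE 0.16). All 6 lay above the later median. The membrane traffic genes *Napa* (α-SNAP) and *Stx6* (a syntaxin of the trans-Golgi network) showed the other pattern, with 283.1 and 547.1 normalized counts of *Napa* in early *b6/b6* 1 and 4 and 49.8 to 85.9 in the other 4 early mice (later mice 25.9 to 72.8). For 11 of the 15 genes, early *b6/b6* 1 and 4 were the 2 highest of all 24 mice. The other genes were *Usp34*, a deubiquitinase, *Tbc1d13*, a Rab GTPase activator, *Mtus2*, *Plcxd2*, the formin *Fmn1*, *Rnf165*, the mitochondrial carrier *Slc25a25*, *BC017643* and the activin receptor *Acvr2b*. In 12 of the 15 every early mouse lay above the later median, and all 15 had a positive difference within each genotype. Both follow in part from the choice of these genes by low *P* in the same comparison. The median log2 difference of the 15 was 1.07, and 0.60 without early *b6/b6* 1 and 4.

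The 15 genes lower in early mice had fitted log2 differences of -0.65 to -1.76. The lowest *P* of any gene was that of *Tmem107*, which encodes a membrane protein of the transition zone of the primary cilium. Early *b6/b6* 1 to 4 had 87.8, 56.0, 53.1 and 74.0 normalized counts and the early *cast/cast* mice 68.6 and 67.7, while the later mice had 71.0 to 200.2 with a median of 120.4. A single later mouse, at 71.0, was within the early range (log2 difference -0.88, SE 0.18, unadjusted *P* = 6.46e-05). *Fbxo36*, an F-box protein, had 22.4, 12.5, 26.05 and 3.26 normalized counts in early *b6/b6* and 13.97 and 8.31 in early *cast/cast* mice, and a median of 27.5 in later mice. Every early mouse lay below that median, and the ranges overlapped, the lowest later mouse being at 15.5 (log2 difference -1.27, SE 0.30).

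*Hdc*, which encodes the histidine decarboxylase that makes histamine in neurons of the tuberomammillary nucleus, had 1187, 604.9, 1374 and 1184 normalized counts in early *b6/b6* mice and 703.6 and 722.8 in early *cast/cast* mice. The later *b6/b6* mice had 1240 to 1664 and the later *cast/cast* mice 783 to 2688. Within *cast/cast* the early mice lay below every later mouse, and within *b6/b6* 3 of 4 did (log2 difference -0.79, SE 0.20). The gene of a second ciliary protein, the BBSome subunit *Ttc8*, was at 157.7 and 217.7 normalized counts in early *b6/b6* 4 and 1, at 373.9 and 429.3 in early *cast/cast* mice and at 563.4 and 799.8 in early *b6/b6* 2 and 3, against a later median of 682.1. The remaining genes were *Zfp54*, a zinc finger gene on chromosome 17, *Il15ra*, *Spata3*, *Cdc42ep4*, the pentose phosphate enzyme gene *Rpe*, the interferon-induced *Bst2*, *0910001L09Rik*, the immediate early gene *Ier5*, the apolipoprotein gene *Apoc1*, *Lrrc23* and *Sprr1a*. In 10 of the 15, which were likewise chosen by low *P* in the same comparison, every early mouse lay below the later median. Their median log2 difference was -1.07, and -0.97 without early *b6/b6* 1 and 4. *Il15ra*, *Zfp54* and *Sprr1a* were at 0 to 11.4 normalized counts in every early mouse, so their differences rest on few tags.

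**Figure D2:**
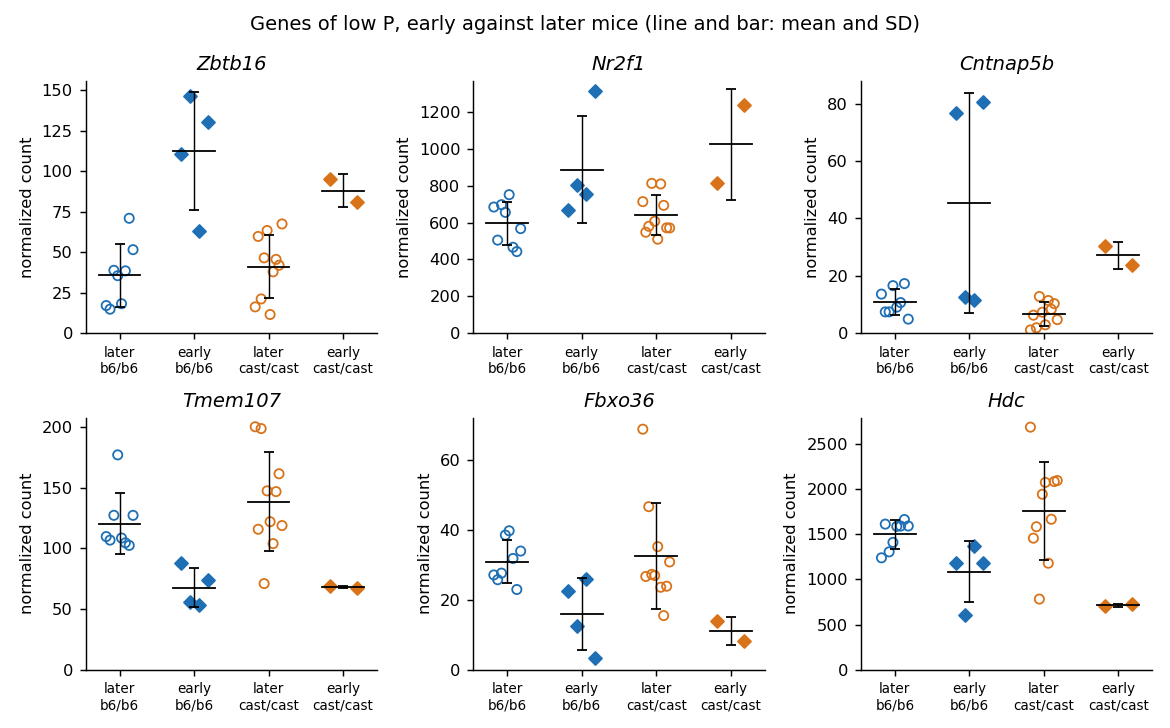
Normalized counts of 6 genes of low *P* in each mouse, by group, with the mean (line) and SD (bar), early mice as filled diamonds and later mice as open circles. *Zbtb16*, *Nr2f1* and *Cntnap5b* were higher on average in early mice of both genotypes, and *Tmem107*, *Fbxo36* and *Hdc* lower. The SD of the early *cast/cast* group comes from 2 mice.

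Marker and pathway lists held 579 of the tested genes in 29 lists. In the pooled comparison 0 of the 579 passed adjustment with limma. On tag hits edgeR called 4 higher and 0 lower, and DESeq2 36 higher and 3 lower. These counts stand beside the calls of each tool over all 13998 genes given above, and whether the lists exceed that share was not tested. With limma 22 (3.8%) passed the study's thresholds, 10 higher and 12 lower, beside 2.7% of all genes. Median log2 differences of the 27 lists with 10 or more tested genes lay between -0.42 (interferon response genes) and 0.43 (glucocorticoid response genes), with 0.00 over all genes. Among dissection markers, no thalamus, cortex and hippocampus, pituitary or choroid plexus gene passed the study's thresholds. Of 15 striatum markers, *Actn2* and *Adcy5* did, both higher. They were at 61.7 and 87.0 (*Actn2*) and at 391.5 and 639.5 normalized counts (*Adcy5*) in early *b6/b6* 1 and 4, and the other early mice were at 7.12 to 11.4 for *Actn2* and at 69.8 to 138.9 for *Adcy5*. Both differences thus followed 2 of the 6 mice.

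The other list members past these thresholds were higher in the case of *Enpp6* (committed oligodendrocyte precursors), *Slco1a4* (a brain endothelial transporter), *Ddit4* (glucocorticoid and stress responses), *Nr1d2* and *Csnk1e* (circadian clock), *Irs2* (insulin signalling) and *Thra* (thyroid hormone receptor α), and lower in the case of *Tac1* (substance P), *Sox14* (a hypothalamic transcription factor), the chaperones *Hspb1* and *Hspa1b*, *Rps28*, *Psmd5* and the complex I subunits *Ndufa5*, *Ndufa13* and *Ndufs8*. *Zbtb16*, *Hdc*, *Ier5* and *Bst2* also belong to lists. *Irs2* was at 74.8 and 192.5 normalized counts in early *b6/b6* 1 and 4 and at 11.4 to 25.1 in the other early mice, the later mice having 1.23 to 23.6. *Enpp6* was at 17.6 to 38.1 in early *b6/b6* and at 30.5 and 96.1 in early *cast/cast* mice, and the later mice ranged from 3.68 to 33.2. In tag hits, *Thra* had 746 and 1612 in early *b6/b6* 1 and 4 and 129 to 191 in the other early mice. For *Csnk1e* these were 1058 and 914 against 251 to 372, and for *Nr1d2* 492 and 553 against 133 to 203. Tag hits of *Slco1a4* and *Ddit4* were also highest in early *b6/b6* 1 and 4. Among lists with no member past these thresholds, the 2 of lowest *P* included *Amotl1* and *Zic1* (thalamus, log2 differences 0.49 and 0.66), *Nrgn* (cortex, -0.52), the dynein light chain gene *Dynlrb2* (ependyma, -0.95), *Siglech* (microglia, -0.50), *Agt* (astrocytes, 0.57) and *Rbfox3* (neurons, 0.58).

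The difference between early and later mice was not the same in the 2 genotypes. In a fit with 4 groups, the early difference of *cast/cast* mice differed from that of *b6/b6* mice for 4859 genes (34.7%) at an adjusted *P* of at most 0.05, more positive in *cast/cast* for 2355 (16.8%) and more negative for 2504 (17.9%). The fitted differences had opposite signs in 97.9% of them, a share that choosing genes for unequal effects itself raises, and in 67.7% of all genes. Early *b6/b6* mice differed from later *b6/b6* mice for 1858 genes (13.3%), 882 higher (6.3%) and 976 lower (6.97%), and early from later *cast/cast* mice for 2897 genes (20.7%), 1270 higher (9.07%) and 1627 lower (11.6%). These 2 comparisons share no mouse, but they come from one fit with a shared estimate of spread. Of the 13998 genes, 439 were called in both, and whether this exceeds the overlap of unrelated lists was not tested. Of the 439, 437 moved in opposite directions. The 2 called in the same direction were *Tmem107* (log2 -0.83 in *b6/b6* and -0.95 in *cast/cast*) and *Fbxo36* (-1.19 and -1.40), both lower in early mice, and neither kept its call in *b6/b6* after the libraries were scaled to equal totals (limma adjusted *P* = 0.0739 and 0.0637). Without early *cast/cast* 1 or 2 they lost their call in *cast/cast* (adjusted *P* = 0.127 and 0.230 for *Tmem107*, 0.0913 and 0.385 for *Fbxo36*).

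These counts rest on few mice. Without early *b6/b6* 1, without early *b6/b6* 4 or without both, 0 genes differed between early and later *b6/b6* mice. Without early *cast/cast* 1 or 2, 1176 and 99 genes differed in *cast/cast*. The genotype difference itself was called for 3532 genes without early *b6/b6* 1 and 4, and for 3474 and 1924 without early *cast/cast* 1 or 2. Scaling the libraries to equal totals moved the median log2 difference of all genes to 0.20 among *b6/b6* mice (0.04 before) and to -0.19 among *cast/cast* mice (0.02 before). It left 1852 calls in *b6/b6*, 1227 of them higher, with 688 higher and 2124 lower in *cast/cast* and 1464 more positive and 3555 more negative for the genotype difference.

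**Figure D3:**
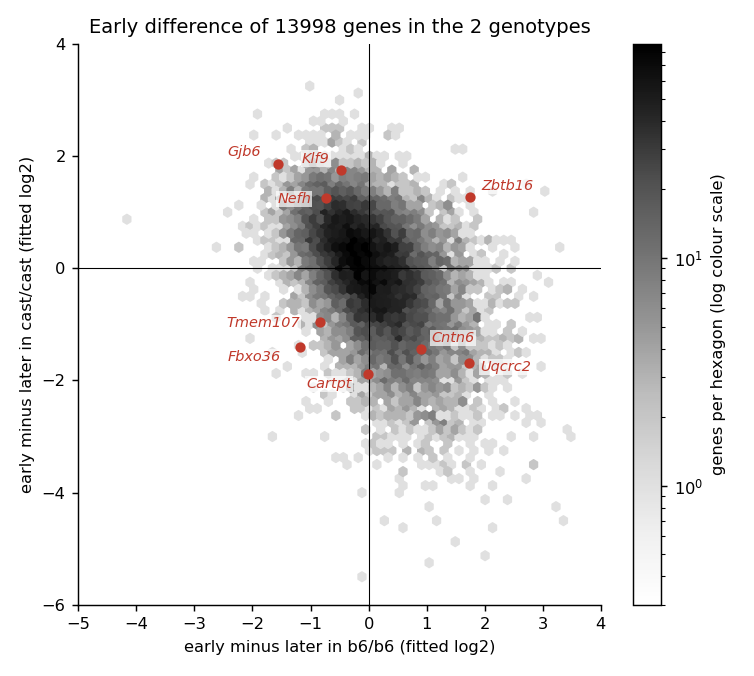
Fitted log2 difference, early minus later, of 13998 genes in *b6/b6* (horizontal, 4 against 8 mice) and *cast/cast* mice (vertical, 2 against 10 mice), with darker hexagons holding more genes on a log colour scale. Most genes far from 0 lie at upper left and lower right, where the signs are opposite, while *Tmem107* and *Fbxo36* lie at lower left and *Zbtb16* at upper right.

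The genes named for the genotype difference were chosen after their values were seen, by lowest *P*. *Arl2*, a small GTPase of tubulin folding, had 2496, 4492, 2535 and 1888 normalized counts in early *b6/b6* mice and 13332 and 17554 in early *cast/cast* mice. Later *b6/b6* mice had 4548 to 11792 and later *cast/cast* mice 3057 to 9680, so that all early *b6/b6* mice lay below, and both early *cast/cast* mice above, every later mouse of their genotype (log2 difference of the 2 effects 3.03, limma adjusted *P* = 0.000754). Over all genes 3.35% had no overlap of early and later *b6/b6* mice and 19.9% none of early and later *cast/cast* mice. *Nefh*, the heavy neurofilament chain of large axons, had 534.5, 763.6, 447.6 and 476.4 normalized counts in early *b6/b6* mice (later 636 to 1202) and 1698 and 2045 in early *cast/cast* mice (later 617 to 1054). *Tshz1*, *Acp2*, *Degs2*, *Camsap2*, *Rpl10a*, *Edc3* and *Ogfrl1* showed the same arrangement of signs.

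In the opposite direction, *Cntn6*, a contactin of neurite growth, had 568.1, 333.1, 362.7 and 425.2 normalized counts in early *b6/b6* mice, all above the highest later *b6/b6* value of 296, and 115.6 and 104.4 in early *cast/cast* mice against 183.9 to 383.2 in later ones. Neither genotype overlapped. *Rbl1*, a pocket protein of cell cycle control, was at 57.6 to 64.6 normalized counts in early *b6/b6* mice, inside the later range, and at 10.2 and 4.75 in early *cast/cast* mice, below all later *cast/cast* mice (27.6 to 74.8). *Snrpc*, *Mfsd7b*, *Dars*, *Thumpd3* and *Gramd4* were also higher in early *b6/b6* and lower in early *cast/cast* mice.

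Neuropeptide genes are the signals by which hypothalamic nuclei are told apart. Of 29 tested, 7 were lower and 0 higher at the adjusted threshold in early *cast/cast* mice (background 11.6% and 9.07%), with a median log2 difference of -0.99. In early *b6/b6* mice 0 were lower and 1 higher (background 6.97% and 6.3%, median 0.41). The summed neuropeptide counts were 13316 and 10147 in the early *cast/cast* mice, below the 14491 to 43458 of the later *cast/cast* mice, and 22064 to 39618 in early *b6/b6* mice, overlapping the later 17692 to 26102. *Cartpt* had 302.3 and 326.4 normalized counts in the early *cast/cast* mice against 593 to 2048 in later *cast/cast* mice (log2 -1.88, adjusted *P* = 0.00308), and 720 to 1415 in early *b6/b6* mice. *Penk* was at 951.2 and 549.5 in early *cast/cast* mice (later 1104 to 4308) and at 2344 to 4643 in early *b6/b6* mice (later 674 to 2443). Both had a genotype difference (log2 -1.87 and -2.65, limma adjusted *P* = 0.0021 and 0.00171). The *cast/cast* calls rest on 2 early mice, and with either left out fewer neuropeptides were called, as over all genes. The median log2 difference of the list was -1.31 without early *cast/cast* 1 and -0.90 without early *cast/cast* 2.

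Markers of neighbouring tissue did not separate the early mice as a group. In early *cast/cast* mice 3 of 17 thalamus markers were higher and 0 lower, and 3 of 15 striatum markers were higher and 1 lower, beside 9.07% and 11.6% of all genes, with *Rora*, *Zfhx3*, *Foxp1*, *Rgs9* and *Pde1b* among the higher ones. Summed striatum markers were at 15331 and 14033 normalized counts there, the later *cast/cast* mice having 7930 to 15080, so the ranges met. Summed pituitary markers were 921 to 2300 in all early mice and 460 to 5603 in later mice, and 0 of the 5 tested were called in either genotype. *Pomc*, also a hypothalamic neuropeptide, had the highest mean of these genes, so the sum does not measure pituitary tissue alone. *Gh* had 105 and 429 tag hits in early *b6/b6* 1 and 4, 0 to 21 in the other early mice and 0 to 203 in later mice. *Cga* had 0 to 65 in early and 0 to 246 in later mice. Haemoglobin and *Alas2*, the blood markers, summed to 4999 and 1704 in early *b6/b6* 1 and 4, and to 121 to 782 in the other early mice (later mice 105 to 1044), and 0 of these 3 genes were called. Choroid plexus markers summed to 1743 to 2694 in the early mice and 1288 to 2250 in the later mice, with *Prlr* and *Enpp2* the members of highest mean. In tag hits, *Kcnj13* of that list had 353 in early *cast/cast* 2 and 0 to 74 in every other mouse. *Prlr*, *Enpp2*, *Calml4* and *Sostdc1* of the same mouse lay inside the range of the later mice.

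Meningeal markers stood out in a single animal. Their sum was 41599 normalized counts in early *cast/cast* 2, 4467 in early *cast/cast* 1 and 2218 to 3213 in early *b6/b6* mice, against 1734 to 10502 in all later mice. *Ptgds*, the prostaglandin D synthase of leptomeninges, was at 34572 in early *cast/cast* 2 and 3687 in early *cast/cast* 1 (later *cast/cast* 1116 to 4923), and *Col1a1*, a fibrillar collagen, at 935.3 and 87.6, a difference that did not pass in *cast/cast* (limma adjusted *P* = 0.0813). Of 18 meningeal genes 3 were higher and 0 lower in early *cast/cast* mice (9.07% and 11.6% of all genes). Without early *cast/cast* 2 the median log2 difference went from 0.78 to -0.78, and without early *cast/cast* 1 to 2.37.

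Among glia, microglial genes split within the list. Of 17 tested, 8 were lower and 1 higher in early *cast/cast* mice (11.6% and 9.07% of all genes), and 2 were higher and 0 lower in early *b6/b6* mice (6.3% and 6.97%). *C1qc*, a complement subunit made by microglia, was at 58.4 and 49.9 normalized counts in early *cast/cast* (later 62.8 to 200.2) and at 266.3, 134.9, 125.4 and 327.4 in early *b6/b6* mice, of which *b6/b6* 3 alone lay within the later *b6/b6* range. *Cx3cr1*, the fractalkine receptor, had the reverse pattern, with 1544 and 3336 in early *cast/cast* and 612.3 to 1191 in early *b6/b6* mice. Its genotype difference passed (log2 1.67, limma adjusted *P* = 0.00967), and its difference within either genotype did not. The *cast/cast* calls rest on 2 early mice, and with either left out fewer microglial genes were called lower, as over all genes. The median log2 difference of the list in *cast/cast*, -0.78, became -0.23 without early *cast/cast* 1 and -1.03 without early *cast/cast* 2.

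Of 21 astrocyte genes 4 were higher and 2 lower in early *cast/cast* mice, beside 9.07% and 11.6% of all genes (median log2 -0.01). In early *b6/b6* mice 3 were higher and 1 lower, beside 6.3% and 6.97% (median 0.18). The *cast/cast* calls rest on 2 early mice, and the median there was -0.08 without early *cast/cast* 1 and -0.03 without early *cast/cast* 2. *Gjb6* (connexin 30) was at 6528 and 8880 normalized counts in early *cast/cast* mice (later 1358 to 3450) and 505.5 to 2306 in early *b6/b6* mice (later 1869 to 6985), while *Gja1* (connexin 43) was at 229.9 and 426.1 in early *cast/cast* and at 2500, 448.2, 479.5 and 2975 in early *b6/b6* mice (later 250.2 to 504.4). Of 25 oligodendrocyte and myelin genes, 2 were higher and 2 lower in early *cast/cast* mice (9.07% and 11.6% of all genes, median log2 -0.47). In early *b6/b6* mice 5 were higher and 0 lower (6.3% and 6.97% of all genes). The 5 included *Mag* and *Mal*, which reached 369.1 and 597.1 (*Mag*) and 1774 and 2053 (*Mal*) in early *b6/b6* 1 and 4 and lay within the later *b6/b6* range in early *b6/b6* 2 and 3 (22.1 to 76.5 and 127.8 to 557.9). Without early *b6/b6* 1 and 4 none of the list calls in *b6/b6* remained. *Mbp*, the myelin basic protein gene, was at 17427 to 20870 in the 4 early *b6/b6* mice, inside the later range.

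Lists of energy metabolism and protein turnover held lower calls in early *cast/cast* mice. Of 73 oxidative phosphorylation genes 30 were lower and 0 higher, beside 11.6% and 9.07% of all genes (median log2 -1.13, with 0.02 over all genes), and 11 were higher and 6 lower in early *b6/b6* mice, beside 6.3% and 6.97% (median 0.11). *Ndufb6*, a complex I subunit, was at 746.8 and 453.4 normalized counts in early *cast/cast* mice against 1152 to 11375 in later ones, and *Uqcrc2*, a core subunit of complex III, at 188 and 147.2 against 219.4 to 821.6. *Uqcrc2* reached 2131 and 2545 in early *b6/b6* 1 and 4 and was at 579.99 and 653.1 in early *b6/b6* 2 and 3 (later 247.7 to 547.7). Beside the same 11.6% and 9.07%, 16 of 34 proteasome genes were lower and 0 higher in early *cast/cast* mice, with *Psmb2* at 27.9 and 16.6 (later 44.6 to 376.7). Of 24 cholesterol synthesis genes 7 were lower and 1 higher in early *cast/cast* mice (11.6% and 9.07% of all genes), among the former *Fdps*, at 99.1 and 96.1 (later 151.1 to 681.3). These lower calls rest on 2 early mice, and with either left out fewer were made in these 3 lists, as over all genes. The medians of the 3 lists in *cast/cast* stayed between -1.13 and -0.65 without early *cast/cast* 1 or 2. Summed oxidative phosphorylation counts were 217625 and 225896 in early *cast/cast* mice, below the 245168 to 469568 of later *cast/cast* mice. Proteasome sums overlapped (58416 and 52154, later *cast/cast* 56032 to 104996). Cholesterol synthesis sums lay inside the later range (9572 and 12866, later *cast/cast* 8067 to 13106). Cytosolic ribosomal protein genes had medians near 0 in both genotypes (0.05 and -0.06).

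Of 14 glucocorticoid response genes, 4 were higher and 1 lower in early *cast/cast* mice, beside 9.07% and 11.6% of all genes. *Klf9*, a Krüppel-like factor induced by glucocorticoids and thyroid hormone, was at 2981 and 4457 normalized counts in early *cast/cast* (later 549.8 to 1742) and at 933.9 to 1300 in early *b6/b6* mice (later *b6/b6* 992.2 to 2588), of which *b6/b6* 3 alone lay below the later *b6/b6* range. *Sult1a1*, a sulfotransferase, was at 3063 and 1110 (later 119.4 to 735.5). *Plin4* and *Cdkn1a* were high in early *cast/cast* 1 (629.9 and 645.2) but at 57.0 and 86.6 in early *cast/cast* 2, where *Cdkn1a* lay within the later range. Immediate early genes gave 4 lower and 0 higher of 16 in early *cast/cast* mice, beside the same shares, with *Arc* at 8.89 and 2.37 (later 12.4 to 130.2), and 0 called in early *b6/b6* mice. The *cast/cast* calls of these lists, and of thalamus and striatum markers, rest on 2 early mice, and over all genes fewer were made with either left out. Without early *cast/cast* 1 and without early *cast/cast* 2, median log2 differences were -0.66 and -0.24 for immediate early genes. They were 0.37 and 0.74 for glucocorticoid response genes, 0.31 and 0.44 for thalamus markers and -0.02 and 0.51 for striatum markers. Of 19 clock genes 2 were higher and 3 lower in early *cast/cast* mice, beside 9.07% and 11.6% of all genes. The clock output gene *Tef* was at 39931 and 33937 in early *cast/cast* mice (later 9611 to 28179), while *Per3*, a period gene, was at 38.1 and 40.4 (later 31.9 to 183.3) and *Gm129* at 2.54 and 7.12 (later 2.73 to 80.3).

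**Figure D4:**
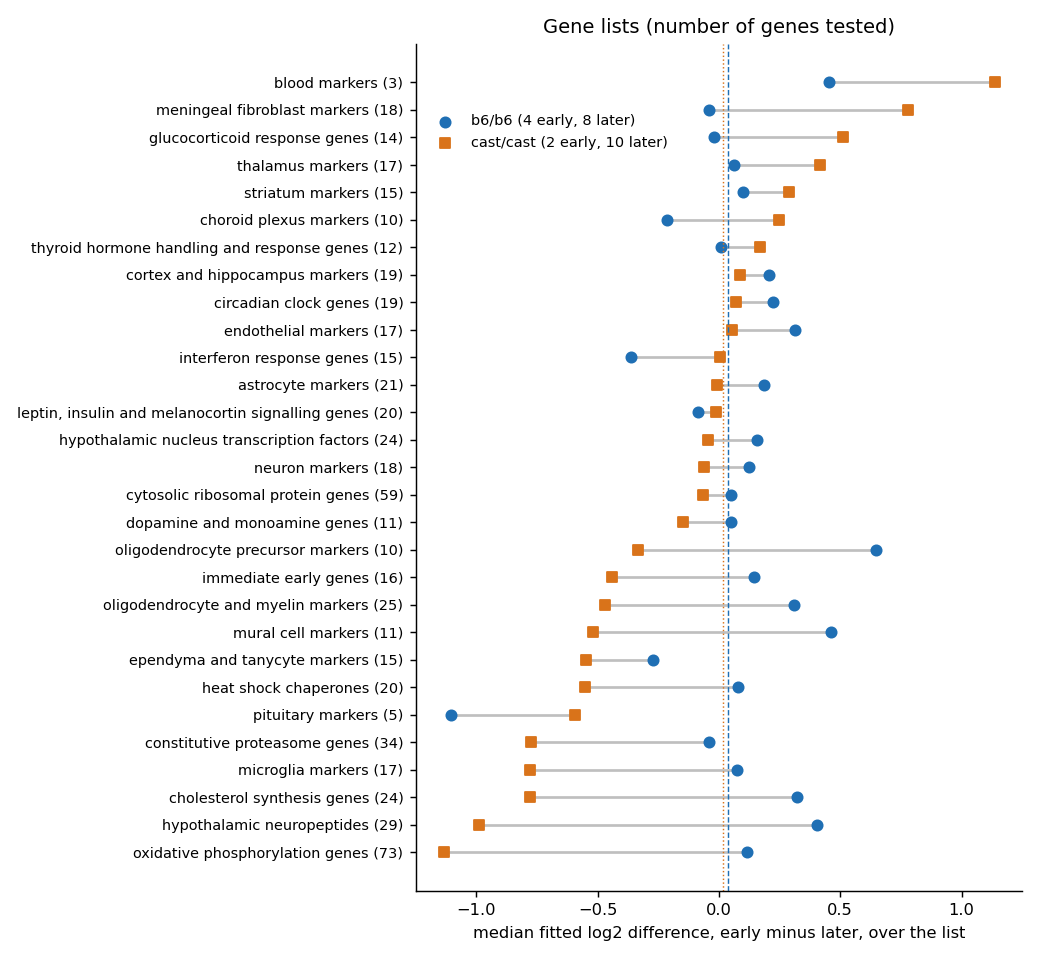
Median fitted log2 difference, early minus later, of 29 gene lists in *b6/b6* (blue circles) and *cast/cast* mice (orange squares), joined by grey lines, with the median of all genes as a dashed (*b6/b6*) and a dotted line (*cast/cast*). Oxidative phosphorylation genes and neuropeptides have the lowest *cast/cast* medians, -1.13 and -0.99, and the pituitary (5 genes) and blood (3 genes) lists are short.

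The direction of a gene moved with the place of its tag site. A transcript with a last NlaIII site was found for 13637 of the 13998 genes. From genes with the site 27 to 100 bases from the transcript end to those with it over 800 bases away, the median log2 difference rose from -0.18 to 0.56 among *b6/b6* mice. Among *cast/cast* mice it fell from 0.25 to -0.74, and in the pooled comparison it was -0.03 and 0.04. Genes with the site less than 27 bases from the end had medians of 0.41 and 0.09. Per mouse, the median deviation of genes with sites over 400 and up to 800 bases away exceeded that of genes with sites 27 to 100 bases away by 0.52 and 0.53 in early *b6/b6* 1 and 4 and by 0.23 and 0.26 in 2 and 3. It was -0.45 and -0.70 in the early *cast/cast* mice, and the later mice ranged from -0.49 to 0.31. The difference also moved with expression level, with medians of 0.30 in the 3500 genes of lowest and -0.23 in the 3500 of highest mean in *b6/b6*, and of -0.14 and 0.20 in *cast/cast* mice. The part of either in the gene and list results was not tested.

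**Figure D5:**
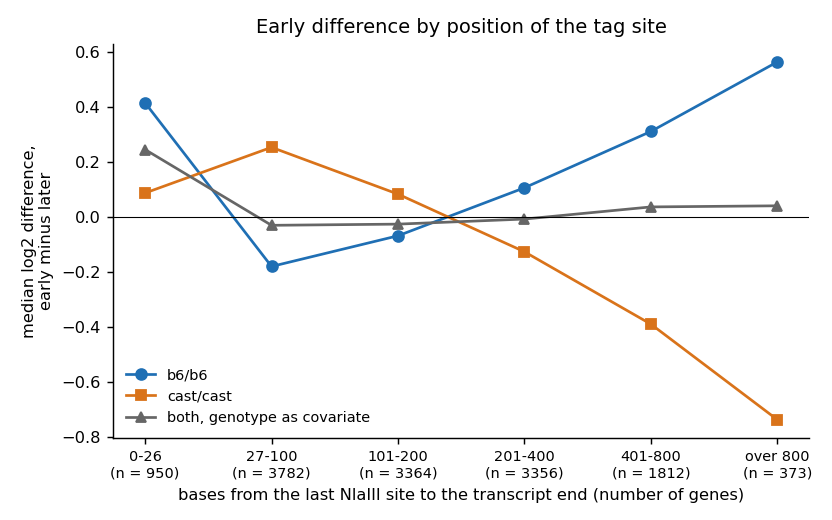
Median fitted log2 difference, early minus later, of genes grouped by the distance in bases from the last NlaIII site to the transcript end, for *b6/b6* (circles), *cast/cast* (squares) and both with genotype as a covariate (triangles). Beyond 27 bases the *b6/b6* medians rise to 0.56 and the *cast/cast* medians fall to -0.74, with the pooled medians near 0.

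The early mice had also eaten less. Total intake over the 10 d test was 99.6 ± 3.63 kcal (SD, n = 4) in early and 111.8 ± 6.33 (n = 8) in later *b6/b6* mice, and 104.0 and 119.0 kcal in the early against 121.9 ± 7.79 (n = 10) in the later *cast/cast* mice. The difference adjusted for genotype was -11.5 kcal (two-sided exact permutation of the early labels within genotype, *P* = 0.00233). It was -12.2 kcal within *b6/b6* (exact *P* = 0.00808, ranges 94.8 to 103.3 and 103.2 to 120.2 kcal) and -10.4 kcal within *cast/cast* (exact *P* = 0.152). Both total intake and intake from the C/P diet were traits on which the mice had been selected, and the part of that selection in these differences was not tested. C/P intake differed by -3.07 kcal (exact *P* = 0.340). With total kcal as a further covariate, 143 genes passed the study's thresholds in the pooled comparison, against 378 without it, and 0 passed adjustment in either.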

How the data were processed

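SAGE-Seq of 24 hypothalami was analysed. The signal values were deposited by the authors as tag hits per gene (modified SOLiD SAGE Analysis Software, RefSeq mRNA, GRCm38) divided by the DESeq size factor of each library. Their comparison columns (means, fold changes, *P*) were not used. The 19529 rows held 13998 genes, with mean normalized counts of at least 6.03. In every library 100% of values were whole tag hits (tolerance 0.01 hit) once divided by a single step. No 2 of 276 pairs of libraries agreed within sampling noise (lowest chi-square per degree of freedom 15.4).

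Genes with a mean of at least 5 were tested by limma 3.58.1 (moderated statistics, variance trend) after log2 transformation with 1 added, early against later with genotype, and in a 4-group fit for the genotype difference, with fold changes on that scale. edgeR 4.0.16 and DESeq2 1.42.0 (R 4.3.3) were run on recovered tag hits. Intakes and library sizes were tested by exact permutation over 32670 arrangements (Python 3.11.15). In simulated data limma called 50.5% of 2-fold and 93.9% of 4-fold early changes, and 0% and 46% of those differing by genotype. The simulated spread was that within the 4 groups, and each early change was the same in every early mouse. The real early mice differed among themselves, so these shares do not give the power of the pooled comparison. The named genes were the 15 higher and 15 lower with the lowest *P* and at least 1.5-fold, and list members by lowest *P*, highest mean or a called genotype difference. The groups and lists were chosen with earlier results of these data known. Last tag sites came from GENCODE M21. *P*-values measure the spread between individual mice. Counting error applies to tags without molecular identifiers.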

Additional observations from a re-analysis of the deposited data

Results flagged for a closer look

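The difference between early and later mice differed between the genotypes for 4859 genes at an adjusted *P* of at most 0.05 (limma, 4-group fit), a comparison in which one arm has 2 mice. Of 105 group values examined for a single mouse far from the rest of its group, 6 were found, and chance alone gives about 5% of groups. *Ier5* reached 213.2 normalized counts in early *b6/b6* 3, the next early *b6/b6* mouse having 54.0. *Apoc1* reached 48.2 in the same mouse, the next having 5.44. In later mice, *Plcxd2* and *Tmem107* had a single high *b6/b6* value (355.7, next 234.2, and 177.0, next 127.2), and *BC017643* and *Bst2* a single high *cast/cast* value (25.8, next 17.6, and 288.5, next 206.7).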

How the results depend on the processing

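No paired analysis was possible because the labels give the groups no shared replicate numbers. The 30 genes named from the pooled comparison were chosen, in each direction, for the lowest *P* among genes of at least 1.5-fold. Refits on the same mice or subsets of them were thus likely to keep their signs, and give no independent check. All kept their direction under every alternative except *Mtus2* (-0.00389) without early *b6/b6* 1 and 4 and both early *cast/cast* mice. A minimum mean of 20 kept 24 of the 30 genes. Genes at the adjusted threshold in the pooled comparison (0) numbered 378 under the thresholds of the study, 68 with edgeR, 545 with DESeq2, 541 with *b6/b6* mice alone, 2543 with *cast/cast* mice alone, 551 against later mice up to study number 121, 1740 without both early *cast/cast* mice, and 0 to 1 with single early mice left out. The 378 became 755 with edgeR, 983 with DESeq2, 143 with total kcal as a covariate, 1909 and 2653 within *b6/b6* and *cast/cast* alone, 1621 against later mice up to study number 121, 102 without early *b6/b6* 1 and 4, 2174 without both early *cast/cast* mice, 214 without all 4, and 101 to 949 with single early mice left out. The genotype difference (4859) ranged from 1924 to 5249 with single early mice left out. Calls in *b6/b6* (1858) ranged from 0 to 3318, with 0 without early *b6/b6* 1 and 4 and 541 in a fit of *b6/b6* mice alone. Calls in *cast/cast* (2897) were 99 to 1176 with a single early mouse left, its spread assumed to be that of the other groups, and 4964 without later *cast/cast* 4 and 6 and later *b6/b6* 1. Intake from the C/P diet turned to 0.05 kcal as a difference of medians (exact permutation *P* = 0.988), and the library size difference in *b6/b6* mice alone was -1.63 M tag hits (exact *P* = 0.0747). Except where a left-out mouse reduces the sample, the cause was not tested. The settings that leave out named sets of mice, and those for the genotype difference (except edgeR and a pseudocount of 5) and for the calls within a genotype, were chosen after seeing the data.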
